A study of Mus musculus with 17 samples.

Results

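The 9 genes described here, Shh, Ptch1, Smo, Gli1, Gli2, Gli3, Hhip, Sufu and Boc, encode a ligand, receptors, transducers and transcription factors of the Hedgehog pathway. Their probes were found by gene name in the array annotation, which gave 18 probes for the 9 genes, among 30030 genes on the array. After a filter on dim probes 8 of the 9 genes were tested, among 26447 genes in all, and Shh was the gene that did not pass. The arrays compared cells whose progenitors lay in the dorsal or the lateral wall of the subventricular zone (SVZ), the germinal layer beside the lateral ventricle of the postnatal mouse brain. CD1 mice were electroporated in vivo at P1, and GFP-positive cells were sorted by flow cytometry 8 hours or 1, 2, 4, 7 or 14 days later. There were 2, 3, 2, 3, 3 and 4 arrays at these times, 17 in all, and each array held a dorsal sample labelled with Cy3 and a lateral sample of the same time labelled with Cy5, 34 samples in all. All groups shared the strain, the age at electroporation, the sort for GFP and the PCR amplification of cDNA, and there was no group without electroporation. The labels call the arrays of a time biological replicates and do not say how many animals entered a sample.

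In Hedgehog signalling the secreted ligand binds Ptch1, which otherwise holds the membrane protein Smo inactive. Active Smo releases the Gli transcription factors from their inhibitor Sufu at the primary cilium, so that Gli2 and Gli1 act mainly as activators and less of Gli3 is cut to its repressor form. Gli1, Ptch1 and Hhip are themselves transcribed in response to the signal and are widely read as its reporters. In the postnatal SVZ the pathway is known for its part in stem cell maintenance and in the regional identity of olfactory bulb interneurons, with the response described mainly in ventral progenitors.

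The probes that the results turn on are shown by the first 30 bases of their 60, 5′ to 3′ and in lower case throughout, because 2 probes of 1 gene gave different answers and a reader needs to see which stretch each one reads. Positions are those of the whole probe in mm9, as the deposited scanner files give them; where in the transcript each lies was not analysed here. The Shh probe lies at chr5:28783983-28784042 on the minus strand. The Boc probes A_52_P319495 and A_52_P623296 lie at chr16:44485845-44485904 and chr16:44499199-44499258, also on the minus strand. The Ptch1 probes A_52_P598605 and A_51_P127435 lie at chr13:63610298-63610357 and chr13:63612907-63612966 on the minus strand. The Gli1 probe lies at chr10:126767991-126768050 on the minus strand. The Gli3 probes A_51_P171288 and A_51_P410070 lie at chr13:15821502-15821561 and chr13:15818729-15818787 on the plus strand.
Shh A_52_P49014: aatttattattgtgtgaactgtactcacag
Boc A_52_P319495: tgctgtttaggtcttgtaccagttgaagaa
Boc A_52_P623296: agacctttgtctttagcttgatccatttca
Ptch1 A_52_P598605: catttggatgttttaatttgtaaaagaaaa
Ptch1 A_51_P127435: ggggtatttgaggatcctcatgtgcctttt
Gli1 A_51_P518548: ccgggtgctgcctatagccagtgtcctcga
Gli3 A_51_P171288: tgttctcctctgacaagttacgcttgtata
Gli3 A_51_P410070: tcaagtatattccttttatggaaaaggact

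Levels are log2 of background-corrected, normalised spot intensity, and a wall difference is dorsal minus lateral on the same array. A spot is called well above background where the scanner software marked it so. Between 40.9 and 76.7% of spots were well above background in the dorsal channel and between 56.4 and 79.4% in the lateral channel, and the number of arrays limits the precision. Of the arrays, 2 stood apart: the median correlation of their gene levels (mean of both channels) with those of the other arrays was 0.69 for 1 day replicate 1 and 0.77 for 14 days replicate 2, against 0.85 to 0.92 for the rest. The dyes were never swapped, so wall and dye cannot be told apart in any wall difference, whereas a constant dye effect cancels in a change with time. The 3 arrays of 1 day shared 1 slide and the 4 of 14 days another, so slide and time cannot be told apart there. Fewer cells of a type and less RNA per cell cannot be told apart in sorted pools. Where several probes of a gene passed the filter, the brightest stood for the gene, and levels are compared only within a probe.

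**Figure D1:**
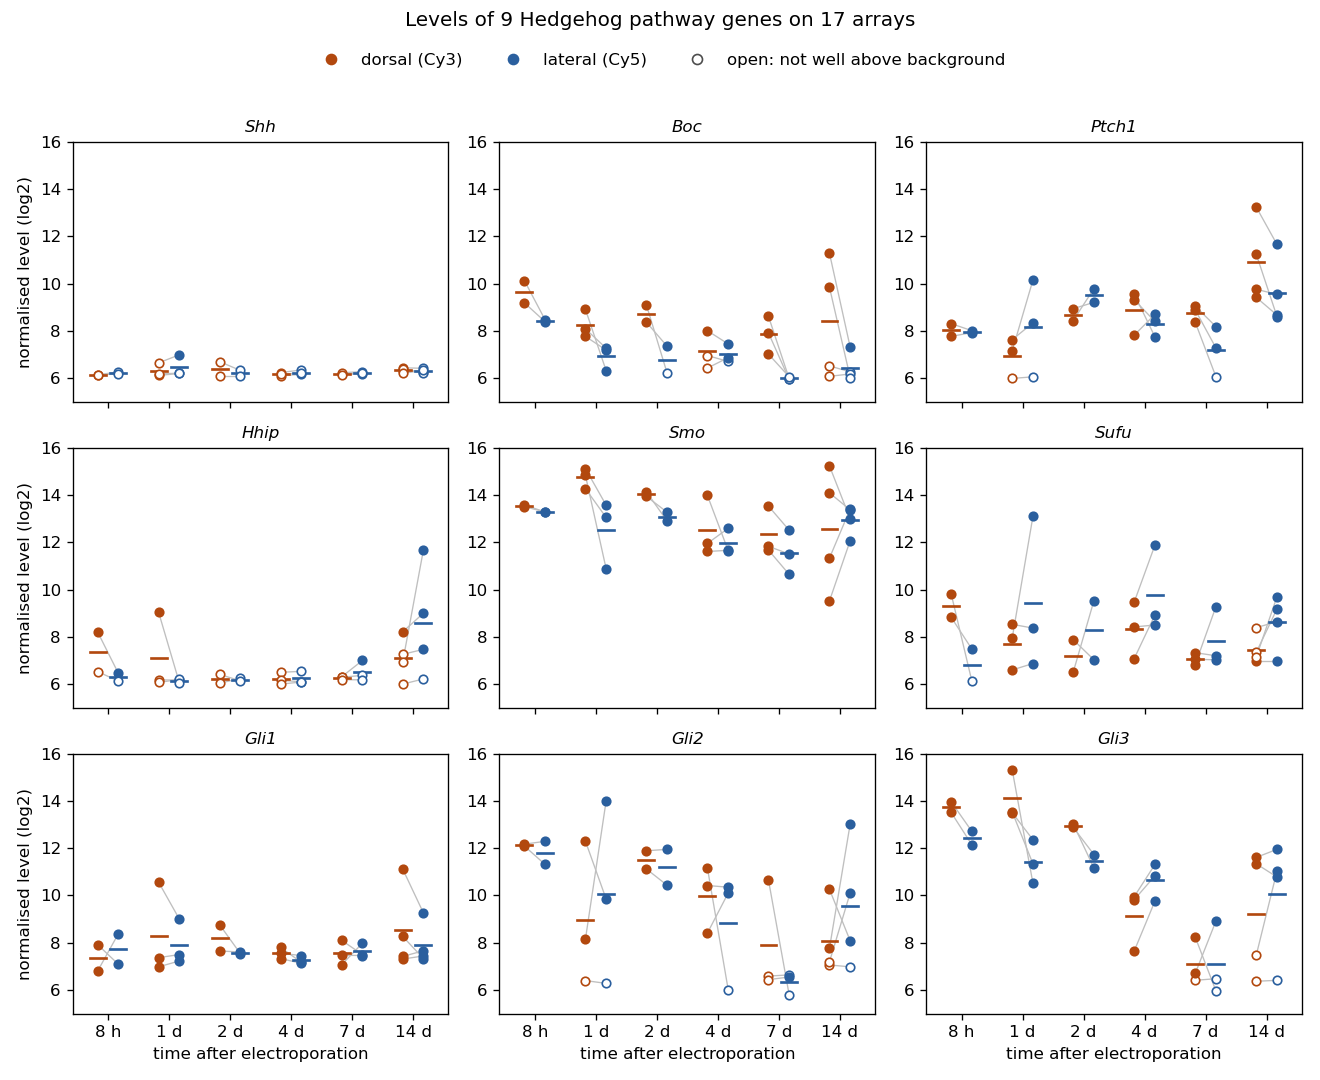
Normalised level (log2) of the probe that stands for each of the 9 genes, by time after electroporation. Each point is 1 sample, dorsal left of lateral, lines join the samples of an array, short bars are group means, and open points were not well above background. Shh stayed between 6.10 and 6.99 in all samples, Gli1 was filled in all 34, and dorsal Gli3 lay at 12.88 or more up to 2 days and at 11.61 or less from 4 days.

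Of the receptors and their partners, Boc was higher in the dorsal than in the lateral samples, and neither Ptch1 nor Hhip passed the test. Boc is a co-receptor that binds the ligand and aids its reception. Averaged over the 6 times, with each time weighted equally, the Boc level was 8.35 in dorsal and 6.93 in lateral samples, a difference of 1.41 ± 0.33 (SE; 2.66-fold, 95% interval of the log2 difference 0.70 to 2.12, adjusted p = 0.0437, limma). A level below the background mark has no order, and of the 14 arrays with either channel above it the dorsal value was the higher on 13. Of all genes tested, 2.38% were called in this comparison and 1.29% were called higher, and of the 8 Hedgehog genes 1 was called. The median difference of the 8 was 0.25, against 0.02 over all genes.

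At 8 hours Boc measured 9.19 and 10.13 in dorsal samples, against 8.39 and 8.47 in lateral samples. At 1 day it measured 7.77, 8.09 and 8.92 in dorsal samples, against 7.19, 7.27 and 6.32 in lateral samples. At 2 days it measured 9.10 and 8.37 in dorsal samples, against 6.21 and 7.35 in lateral samples. Up to 2 days the dorsal sample was the higher on all 7 arrays, and within each time the 2 walls did not overlap. At 4 days Boc measured 6.96, 6.43 and 8.01 in dorsal samples, against 6.71, 6.87 and 7.45 in lateral samples, and the walls overlapped. At 7 days it measured 8.62, 7.92 and 7.02 in dorsal samples, against 5.98, 5.95 and 6.06 in lateral samples. None of the 3 lateral samples of 7 days was well above background. With lateral values raised to the lowest level of any well-measured probe on the array, the dorsal level there was 3.3-fold the lateral one. That floor is not an upper limit, since a Gli2 probe not well above background measured 6.64 in the lateral sample of 7 days replicate 1. The 3.3-fold is thus not a lower bound. At 14 days Boc measured 6.52, 6.08, 11.29 and 9.85 in dorsal samples, against 6.27, 6.18, 7.31 and 6.03 in lateral samples. Replicates 3 and 4 of 14 days differed by 3.97 and 3.81 between walls, while replicates 1 and 2 differed by 0.24 and -0.10 and lay below the background mark in both channels. Over all arrays Boc was well above background in 13 dorsal and 9 lateral samples.

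The Boc call was close to the threshold. Leaving out 1 array at a time gave adjusted p between 0.0224 and 0.145, with the call kept in 3 of the 17 fits (without 1 day replicate 1, 14 days replicate 1 or 14 days replicate 2) and a difference between 1.26 and 1.57. Without both arrays that stood apart the difference was 1.59 (adjusted p = 0.0189, in a range of 0.00292 to 0.0591 over 12 other settings). The mean difference within slides 1 to 5 was 1.33, 1.93, 0.85, 1.98 and 0.99. The second Boc probe A_52_P623296 showed a difference of 0.02 ± 0.08 (adjusted p = 0.934) and was well above background in 8 of 34 samples. The remaining Boc probe was well above background in 1 sample and was not tested. In the same comparison 3 of 7 radial glia markers and 3 of 6 astrocyte markers were called higher in dorsal samples, with list medians of 1.18 and 1.35. Of the erythroid markers 2 of 4 tested were called higher in dorsal samples (median 2.63), and 1 of 6 neuroblast, 1 of 6 proliferation, 1 of 6 mature neuron and 1 of 4 choroid plexus markers were called lower (medians -0.72, -0.79, -0.31 and 0.35). Of the 5 ependymal markers 0 were called (median 1.81). The part of these cell types in the Boc difference was not tested.

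**Figure D2:**
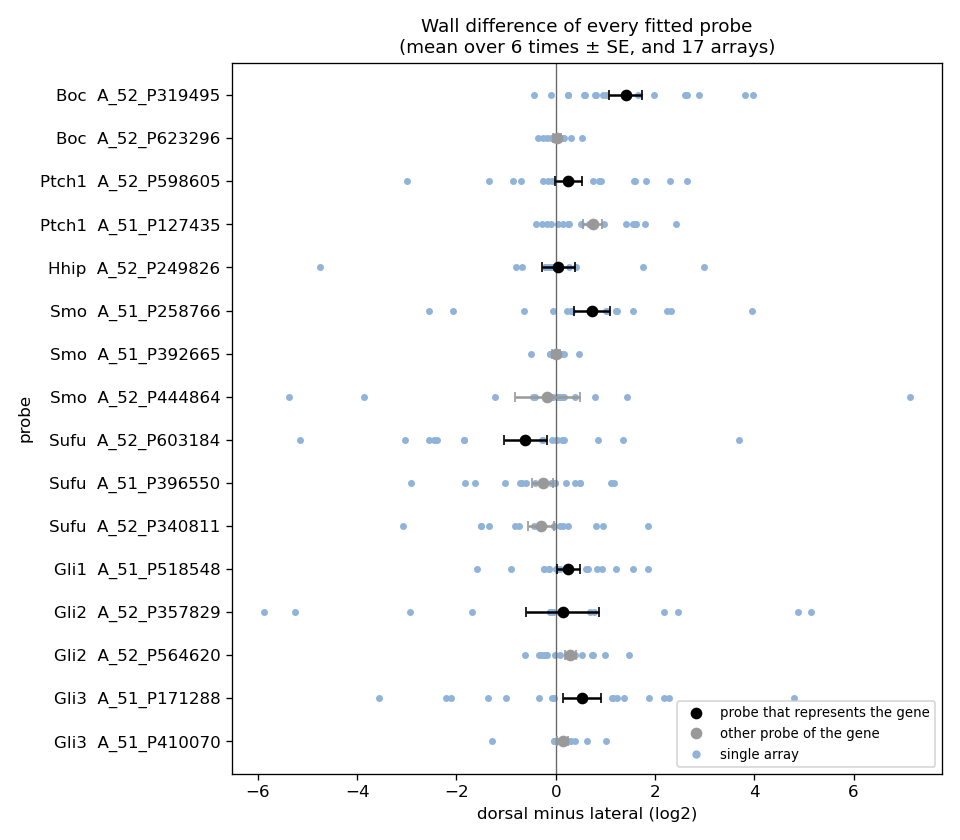
Mean wall difference over the 6 times (dorsal minus lateral, log2, ± SE) of each fitted probe, with the 17 single arrays as small points. Black marks the probe that stands for a gene and grey its other probes; A_52_P340811 carried the name Sufu only in the older annotation. Boc A_52_P319495 lies at 1.41 and the second Boc probe at 0.02, and the Gli2 and Smo probes of 1 gene differ widely in the spread of their arrays.

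Ptch1, the ligand's receptor and itself a target of the pathway, gave a different account through each of its probes. Through A_52_P598605 the mean wall difference was 0.25 ± 0.26 (adjusted p = 0.692), with the dorsal value higher on 10 of the 16 arrays where either channel was well above background. Through A_51_P127435 it was 0.74 ± 0.19 (unadjusted p = 0.00182, adjusted p = 0.0726), with the dorsal value higher on 13 of 17. The first probe measured 5.99, 7.15 and 7.63 in dorsal samples of 1 day, against 6.06, 10.15 and 8.34 in lateral samples. The second measured 10.02, 9.02 and 8.14 in dorsal samples of 1 day, against 8.46, 6.58 and 6.53 in lateral samples. The first probe lay below the background mark in both channels of replicate 1 there, and on the other arrays of 1 day the probes pointed opposite ways. Over 17 arrays their wall differences had a Pearson r of -0.39. Over the 34 samples their levels had an r of -0.06, a description in which the points share arrays and times. At 7 days the first probe measured 8.37, 9.05 and 8.89 in dorsal samples, against 6.06, 8.18 and 7.28 in lateral samples, and the walls did not overlap. At 14 days it measured 9.42, 13.24, 11.25 and 9.76 in dorsal samples, against 8.67, 11.66, 8.61 and 9.55 in lateral samples, higher in dorsal on each of the 4 arrays. The differences at 7 and 14 days were 1.59 ± 0.61 and 1.29 ± 0.53, with unadjusted p of 0.0223 and 0.0301 and adjusted p of 0.882 and 0.415. Through the second probe they were 0.50 ± 0.44 and 0.26 ± 0.38.

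**Figure D3:**
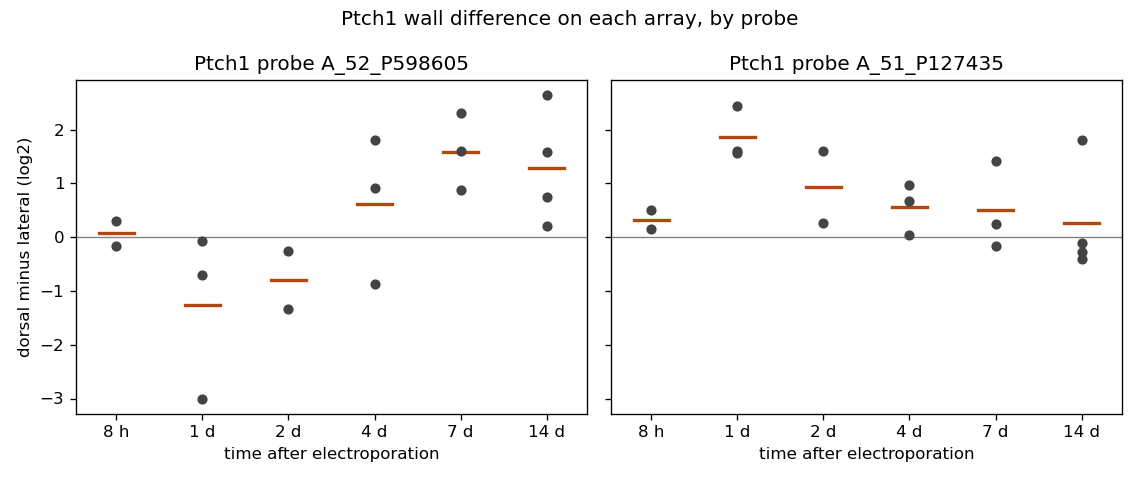
Ptch1 wall difference (dorsal minus lateral, log2) on each array by time after electroporation, for its 2 probes, with bars at the group means. At 1 day A_52_P598605 averaged -1.26 and A_51_P127435 averaged 1.87.

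Hhip, a membrane protein that binds and withholds the ligand, lay near background through most of the course. Its probe was well above background in 8 of 34 samples, 3 dorsal and 5 lateral, and its mean wall difference was 0.05 ± 0.33 (adjusted p = 0.965). At 14 days Hhip measured 6.00, 7.26, 8.21 and 6.93 in dorsal samples, against 6.22, 7.47, 9.0 and 11.68 in lateral samples. Replicate 1 lay below the background mark in both channels there, and the lateral value was the higher on the other 3 arrays, with a difference of -4.75 on replicate 4, -0.80 on replicate 3 and -0.21 on replicate 2 (mean of all 4 -1.49 ± 0.67, adjusted p = 0.464). At 1 day 1 of 3 dorsal samples, with 9.04, and none of the lateral ones was well above background. At 7 days 1 of 3 lateral samples, with 7.00, and no dorsal one was. The second Hhip probe was well above background in 1 of 34 samples and was not tested.

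Shh, the ligand, gave no signal that could be compared. Its level lay between 6.10 and 6.70 in dorsal samples and between 6.10 and 6.99 in lateral samples, and 1 of 34 samples, the lateral one of 1 day replicate 1, was well above background. That array is one of the pair that stood apart. The probe was printed 10 times on each array, so its signal was read repeatedly. The SD of its log ratio between these spots had a median of 0.102, which describes the ratio and not the signal. No fold is given, since both walls lay below background.

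Among the transducers, Smo was well above background in every sample and showed no called difference. Smo, the membrane protein that carries the signal inward, measured 9.52 to 15.23 in dorsal samples and 10.64 to 13.57 in lateral samples. At 1 day it measured 14.84, 15.12 and 14.27 in dorsal samples, against 10.88, 13.57 and 13.05 in lateral samples, with no overlap. At 2 days it measured 14.13 and 13.94 in dorsal samples, against 12.90 and 13.27 in lateral samples, again with no overlap. The dorsal value was the higher on every array at 8 hours, 1 day, 2 days and 7 days and on 13 of 17 in all, with a mean difference of 0.73 ± 0.36 (95% interval -0.05 to 1.51, adjusted p = 0.337). The difference at 1 day was 2.24 ± 0.83 (unadjusted p = 0.0186, adjusted p = 0.207). At 14 days Smo measured 15.23, 11.33, 14.09 and 9.52 in dorsal samples, against 12.99, 13.41, 13.37 and 12.07 in lateral samples. There the dorsal value was the higher in replicates 1 and 3 and the lower in replicates 2 and 4. The other Smo probes gave mean differences of -0.17 ± 0.66 and 0.01 ± 0.08 and were well above background in 21 and 7 samples.

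Sufu, the inhibitor that holds Gli proteins in the cytoplasm, was the 1 gene of the 8 with a negative mean difference, which did not pass the test. It was -0.61 ± 0.45 (95% interval -1.58 to 0.35, adjusted p = 0.534), with the dorsal value lower on 11 of 17 arrays. At 8 hours Sufu measured 9.82 and 8.83 in dorsal samples, against 6.12 and 7.48 in lateral samples. At 4 days it measured 9.47, 8.42 and 7.08 in dorsal samples, against 11.88, 8.50 and 8.93 in lateral samples. At 14 days it measured 7.34, 8.39, 6.96 and 7.14 in dorsal samples, against 9.18, 8.64, 6.96 and 9.70 in lateral samples. Through this probe, A_52_P603184, the dorsal value was thus above the lateral one at 8 hours and below it at 4 and 14 days. The values of 14 days replicate 3 were equal to the second decimal. The second Sufu probe gave -0.26 ± 0.21 (adjusted p = 0.607), with -0.02 and 0.49 at 8 hours and -2.92, -0.72 and -1.83 at 4 days. A probe named Sufu only in the older annotation gave -0.30 ± 0.26 (adjusted p = 0.633) and was well above background in 33 of 34 samples. At 8 hours and 4 days it ran the other way from A_52_P603184, with -0.83 and -0.03, then 1.86, 0.25 and 0.14. At 14 days it gave -1.51, -3.08, -1.34 and 0.95, and the second probe -0.10, -0.02, -1.63 and 0.21.

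Of the Gli transcription factors none differed between walls in the mean over time. Gli1, the target most often used to read pathway activity, was well above background in all 34 samples, and the median SD of its log ratio over the 10 spots of an array was 0.0893. At 14 days Gli1 measured 7.42, 11.12, 7.31 and 8.27 in dorsal samples, against 7.66, 9.26, 7.44 and 7.33 in lateral samples. At 8 hours it measured 6.80 and 7.92 in dorsal samples, against 8.38 and 7.09 in lateral samples. Gli1 differed by 0.25 ± 0.23 between walls (95% interval -0.25 to 0.74, adjusted p = 0.646), and no test of change with time passed (adjusted p = 0.885 in the dorsal and 0.895 in the lateral wall). Its highest dorsal levels, 10.56 and 11.12, came from the 2 arrays that stood apart.

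Gli2, the main activator of the response, scattered widely through its brighter probe A_52_P357829, from 6.40 to 12.30 in dorsal samples and from 5.79 to 14.00 in lateral samples. Its wall difference ran from -5.87 to 5.14 on single arrays and averaged 0.14 ± 0.74 (95% interval -1.47 to 1.75, adjusted p = 0.953). Its other probe A_52_P564620 was well above background in all 34 samples, with wall differences from -0.61 to 1.48 and a mean of 0.29 ± 0.11 (unadjusted p = 0.0231, adjusted p = 0.235). The levels of both probes over 34 samples had an r of 0.08.

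Gli3, the factor that acts mainly as a repressor, was higher in dorsal samples at the early times and lower at 4 days, without passing the test at any time. The arrays of 8 hours gave differences of 1.24 and 1.37, those of 1 day 4.79, 1.14 and 2.19, and those of 2 days 1.87 and 1.15. All 7 arrays up to 2 days were thus higher in dorsal samples. The arrays of 4 days gave -2.11, -1.36 and -1.01, those of 7 days -0.07, -2.22 and 2.28, and those of 14 days -3.56, -0.04, -0.34 and 0.56. At 1 day the mean was 2.71 ± 0.87 (unadjusted p = 0.0087, adjusted p = 0.152), and 1.67 without the array that stood apart (adjusted p between 0.0981 and 0.427 over the fits without 1 array). The mean over all times was 0.53 ± 0.38 (adjusted p = 0.526), and the change of the wall difference with time had an unadjusted p of 0.0406 (adjusted p = 0.596).

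At no single time was any of the 8 genes called different between the walls. Of all genes, 0.378% were called after 8 hours, 1.1% after 1 day and 0.181% after 2 days. The later shares were 0% for 4 days, 0.0265% for 7 days and 0.0227% for 14 days. At an unadjusted p under 0.05, Gli3 and Smo came up on day 1 and Boc and Ptch1 on day 7. On day 14 Boc, Ptch1 and Hhip did. That makes 2, 2 and 3 of the 8 genes through the probe that stands for each, and the remaining times gave 0. Other probes also passed that mark (limma). At 1 day Ptch1 A_51_P127435 differed by 1.87 (unadjusted p = 0.000928, adjusted p = 0.0739), and at 2 days Gli2 A_52_P564620 by 1.11 (0.00433, 0.301). At 4 days the second Sufu probe A_51_P396550 differed by -1.82 (0.00267, 0.707). At 14 days A_52_P340811, named Sufu only in the older annotation, differed by -1.25 (0.0328, 0.462). A change of the wall difference with time was called for 0 of the 8 genes and for 0.0985% of all genes. Of the 8, 2 (Gli3 and Ptch1) had an unadjusted p under 0.05 there. The shares of all genes in this paragraph are at adjusted p. At an unadjusted p under 0.05 they would be larger and are not given, so the member counts at that threshold cannot be set against them.

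Over time within a wall, the dorsal samples showed 1 called change, in Gli3. The test over the 6 times gave an unadjusted p of 0.000304 (adjusted p = 0.0198), where 3.33% of all genes were called. Dorsal Gli3 measured 13.96 and 13.51 in the 8-hour samples, 15.32, 13.50 and 13.54 in the 1-day samples, and 13.03 and 12.88 in the 2-day samples. It measured 7.65, 9.95 and 9.82 in the 4-day samples, 6.41, 6.70 and 8.24 in the 7-day samples, and 7.47, 6.37, 11.61 and 11.34 in the 14-day samples. Every dorsal sample up to 2 days was higher than every one from 4 days on, and at 14 days replicates 1 and 2 lay below the background mark while replicates 3 and 4 did not. In order of the group means, 1 day (14.12 ± 1.04, SD), 8 hours (13.73 ± 0.32) and 2 days (12.96 ± 0.11) came first, and 8 hours lay within the range of 1 day. Then came 14 days (9.20 ± 2.67), 4 days (9.14 ± 1.29) and 7 days (7.12 ± 0.98), of which the first overlapped with each of the other 2.

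Lateral Gli3 measured 12.71 and 12.14 in the 8-hour samples, 10.52, 12.36 and 11.34 in the 1-day samples, and 11.16 and 11.73 in the 2-day samples. It measured 9.76, 11.31 and 10.83 in the 4-day samples, 6.48, 8.92 and 5.96 in the 7-day samples, and 11.03, 6.41, 11.95 and 10.78 in the 14-day samples. The lateral change with time did not pass (unadjusted p = 0.0138, adjusted p = 0.141, where 4.71% of all genes were called and 0 of the 8), and 7 days was the lowest time here too. The lateral test passed without the arrays that stood apart (adjusted p = 0.00873) and without 14 days replicate 2 alone (adjusted p = 0.0118), in a range of 0.0014 to 0.375 over the settings tried with this probe. Whether the time course of Gli3 differed between walls is the test given above, which did not pass.

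On the slides that held several times the dorsal Gli3 level ran the same way. Slide 2 gave 13.03, 7.65 and 6.41 at 2, 4 and 7 days, and slide 3 gave 12.88, 9.95 and 6.70. Slide 5 gave 13.96 and 13.51 at 8 hours, 9.82 at 4 days and 8.24 at 7 days. Leaving out 1 array at a time kept the dorsal call in 14 of 17 fits; it was lost without 8 hours replicate 1 (adjusted p = 0.0625), 8 hours replicate 2 (0.0581) or 7 days replicate 1 (0.0529), in a range from 0.0103. Without both arrays that stood apart the adjusted p was 0.0189. The other Gli3 probe A_51_P410070 was well above background in 5 of 34 samples and showed no called change (adjusted p = 0.688). The 7 radial glia markers, all well above background on at least 1 array at each time, averaged 15.01 to 15.57 in dorsal samples up to 2 days and 12.84 to 14.02 from 4 days on. The 6 neuroblast markers averaged 11.31 to 13.14 in dorsal samples up to 2 days and 12.20 to 15.39 from 4 days on. The 6 astrocyte markers averaged 12.94 to 14.33 up to 2 days, 10.15 to 11.05 at 4 days, 10.99 to 12.09 at 7 days and 13.61 to 14.93 at 14 days. The 5 ependymal markers averaged 11.41 to 14.68 up to 2 days, 7.02 to 7.81 at 4 days, 7.52 to 10.16 at 7 days and 9.04 to 15.72 at 14 days. A dorsal change with time was called for 3 of 7 radial glia, 4 of 6 neuroblast, 5 of 6 astrocyte, 2 of 5 ependymal, 3 of 6 mature neuron, 1 of 6 oligodendrocyte lineage and 3 of 4 erythroid markers. It was called for 0 of the proliferation, microglia, endothelial and choroid plexus markers. Their part in the Gli3 change was not tested.

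**Figure D4:**
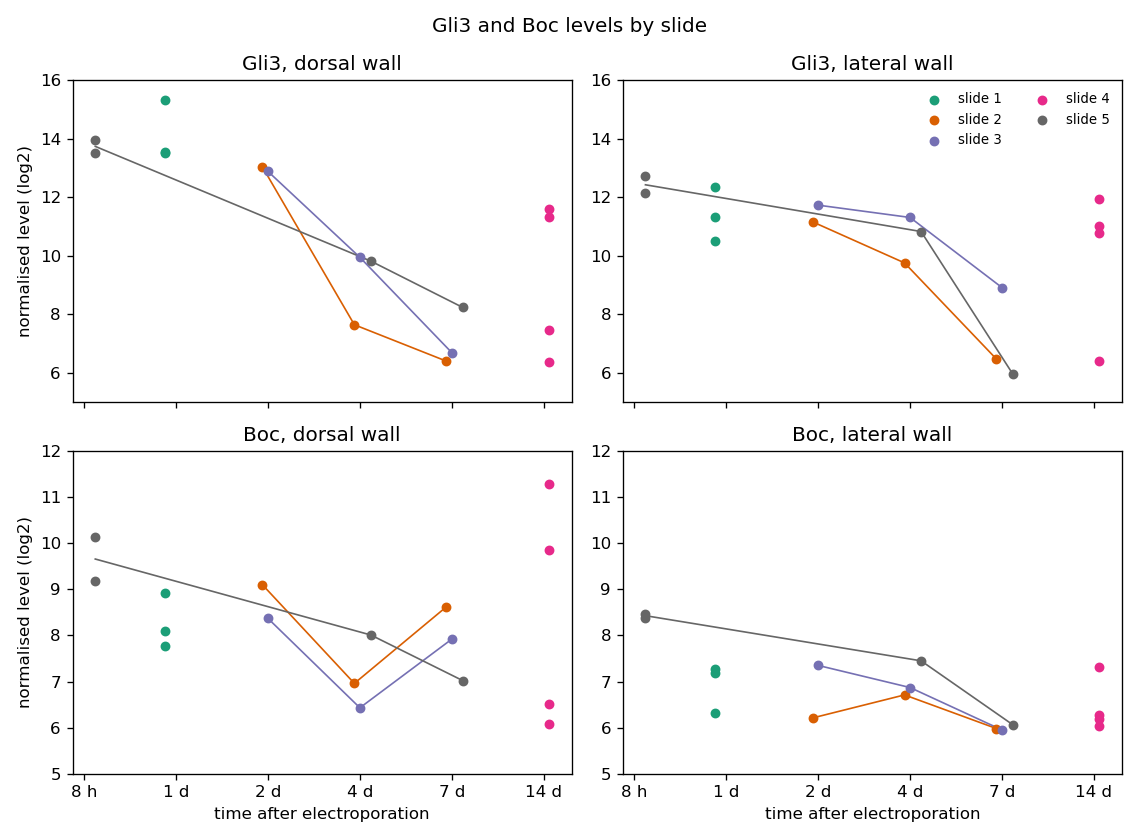
Normalised level (log2) of Gli3 (top) and Boc (bottom) by time after electroporation, dorsal on the left and lateral on the right. Points are samples coloured by slide, and lines join the means of the times that shared a slide. Dorsal Gli3 on slide 2 ran through 13.03, 7.65 and 6.41, and the 14-day samples of slide 4 spread between 6.37 and 11.61.

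Between the ends of the course, Boc was lower at 14 days than at 8 hours in the lateral wall. Lateral Boc averaged 6.45 ± 0.58 at 14 days (SD, n = 4) and 8.43 ± 0.06 at 8 hours (SD, n = 2), a fitted log2 difference of -1.98 ± 0.43 (SE, adjusted p = 0.0284). The groups did not overlap. At 14 days 1 of 4 lateral samples was well above background, against 2 of 2 at 8 hours, so no fold is given. The 14-day samples lay on slide 4 and the 8-hour samples on slide 5, so slide and time cannot be told apart; within slide 5 lateral Boc measured 8.39 and 8.47 at 8 hours, 7.45 at 4 days and 6.06 at 7 days. Of all genes, 2.44% were called in this comparison and 1.06% were called lower, and 1 of the 8 Hedgehog genes was called. The call was lost without either array of 8 hours (adjusted p = 0.203 and 0.223) and without 14 days replicate 2 (0.0582) or replicate 4 (0.0657), and was kept in the other 13 fits (from 0.0113). The second Boc probe gave a difference of 0.23 ± 0.31 (adjusted p = 0.8). In the same comparison 4 of 6 neuroblast markers were called higher, with list means of 15.24 to 15.87 in lateral samples of 14 days and 11.66 to 11.76 in those of 8 hours. Of the mature neuron markers 4 of 6 were called higher (12.10 to 13.51 at 14 days, 8.81 to 8.92 at 8 hours), and 1 of 5 ependymal markers was called lower (7.78 to 10.62 at 14 days, 10.80 to 12.26 at 8 hours). In addition 1 of 6 oligodendrocyte lineage and 1 of 4 choroid plexus markers were called higher, and of the radial glia and astrocyte lists 0 were called (medians -1.33 and 0.94). The part of these cell types in the Boc difference was not tested. In dorsal samples Boc averaged 8.43 ± 2.54 at 14 days and 9.66 ± 0.66 at 8 hours, and the difference of -1.23 ± 1.17 did not pass (adjusted p = 0.648).

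In the dorsal wall 0 of the 8 genes were called between 14 days and 8 hours, where 1.51% of all genes were. Of the 8, 4 had an unadjusted p under 0.05, a threshold at which the share of all genes is not given. Gli3 differed by -4.54 ± 1.30 (adjusted p = 0.129), Gli2 by -4.06 ± 1.54 (0.278) and Sufu by -1.87 ± 0.70 (0.273). Ptch1 through A_52_P598605 averaged 10.92 ± 1.74 at 14 days and 8.04 ± 0.38 at 8 hours (SD), a difference of 2.88 ± 0.88 (SE, adjusted p = 0.166). The 4 dorsal samples of 14 days were all higher than both of 8 hours. Through A_51_P127435 the difference was 0.63 ± 0.55. The test of Ptch1 over the 6 times in the dorsal wall gave an adjusted p of 0.0972. The median of the 8 genes was -1.11 in the dorsal wall, against 0.21 over all genes, and -0.07 in the lateral wall, against 0.31. The 2 time comparisons and the wall comparisons use the same arrays.

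Of 41 other genes of the pathway, 40 were tested. In the mean wall difference 2 of 40 were called higher and 0 lower, where 1.29% of all genes were called higher and 2.38% in all: Tulp3, which carries receptors into the cilium, and Foxf1, a forkhead factor that responds to Hedgehog signals in mesenchyme. Tulp3 differed by 1.20 ± 0.28 (adjusted p = 0.0467), was well above background in 14 dorsal and 15 lateral samples and was higher in dorsal samples on 12 of the 15 arrays with either channel above background. That call was kept in 2 of the 17 fits without 1 array (adjusted p from 0.00822 to 0.161). Foxf1 differed by 0.40 ± 0.07 (adjusted p = 0.0106) but was well above background in 5 dorsal and 4 lateral samples. The dorsal value was the higher on 4 of the 6 arrays with either channel above background and on 10 of 17 in all. Its SE comes from a spread shared over all times, and most arrays lay below the background mark in both channels. At 2 days Foxf1 measured 8.20 and 8.22 in dorsal samples, against 6.43 and 6.14 in lateral samples, a difference of 1.93 ± 0.19 (adjusted p = 0.0021), where 0.181% of all genes were called. The other times lay between -0.14 and 0.44 on single arrays. Foxf1 was also the 1 gene of the 40 called in the change of the wall difference with time (adjusted p = 0.0351, 0.0985% of all genes) and in the dorsal change with time (adjusted p = 0.0352, 3.33% of all genes), calls kept in 5 and 6 of the 17 fits without 1 array.

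In the remaining comparisons 0 of the 40 were called. Among the co-receptors, Cdon differed by 0.48 ± 0.22 (adjusted p = 0.287) and Gas1 by 0.62 ± 0.39 (0.464) in the mean over time. Mycn, a proliferation target of the pathway in neural progenitors, differed by -1.06 ± 0.27 (adjusted p = 0.0651). The ligand Dhh differed by -0.22 ± 0.23 and Ihh by 0.08 ± 0.21. The median difference of the 40 was 0.01.

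The genes whose levels ran most like those of a member were taken by Pearson r over the 34 samples, which share arrays and times. For Gli3 they were Plch1 (0.85), Isg15 (0.83) and Iigp1 (0.82), and for Boc Sox7 (0.78) and Osmr (0.73), with an unnamed transcript between them (0.75). For Smo they were Aff1 (0.75), C1qtnf6 (0.74) and Wdr78 (0.73), and for Gli2 Pcolce2 (0.74), Ift74 (0.74) and Cdk6 (0.73). For Ptch1 Cat came first (0.78), followed by a pair of uncharacterised loci (0.76 each). For Gli1 the first 3 reached 0.87, led by 1700019N19Rik, and for Sufu none passed 0.70. Among the members themselves the highest r of levels was 0.52, between Gli3 and Boc, and Gli3 and Gli2 followed with 0.51. Gli1 and Ptch1, both transcriptional targets, had an r of 0.21.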

How the data were processed

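Each of 17 Agilent arrays of 2 colours gave 1 file of scanner output. Per the file headers, the scans were read by Agilent Feature Extraction, some in version 10.5.1.1 and some in 10.7.3.1. The files the authors deposited hold linear spot intensity, with a log10 ratio per spot and a flag for spots well above background. The deposited value table held log2 ratios of Cy3 over Cy5: its columns fell on the scanner log10 ratios with slopes of -3.29 to -3.04, close to -3.32, the negative of log2 per log10 unit. Its normalization is not stated by the labels or headers.

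From the mean and background intensities, limma 3.58.1 (R 4.3.3) applied normexp with an offset of 50, loess within arrays and Aquantile between them. Control spots had weight 0, flagged spots were dropped, and spots of a probe were averaged. Probes well above background on at least 2 arrays in either channel were kept (36771 of 41174), and the brightest stood for its gene. limma fitted 1 mean per time on all 17 arrays (empirical Bayes), for the log ratio and for each wall's level. Benjamini-Hochberg adjustment ran over all genes, with a threshold of 0.05. The script was tested on simulated data. Other settings were tried: median centring, quantile scaling, processed signals, no filter or a stricter one (8 arrays), the mean over probes, the deposited table, array weights, slide as a random block, replicate blocks, and leaving out arrays. Fitting every probe on its own was chosen after seeing the data.

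Replicate numbers of different times were set side by side. Deviations of same-numbered samples from their group means had correlations of -0.13 to 0.32 for levels over 36 pairs (5 over 0.1). Their median was 0.02, against -0.01 for other pairs. Low correlations cannot exclude a shared litter or batch, so whether the numbers pair samples is not known. Replicate 1 of 2, 4 and 7 days lay on slide 2 and replicate 2 of these times on slide 3. The members and lists were chosen with earlier results of these data known. All 9 members are named, and other pathway genes where called or as examples from the lists. The 3 genes most alike were taken for members well above background in most samples, and not all of these are named. Figures used matplotlib 3.10.9.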

Additional observations from a re-analysis of the deposited data

Results flagged for a closer look

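At 14 days 1 lateral Gli1 level stood far from the others: replicate 2 measured 9.26, while the other 3 lateral samples measured 7.33 to 7.66. Replicate 2 is an array whose signal stood apart, and its dorsal Gli1 level, 11.12, was the highest of the 4 as well. The Hhip wall difference at 14 days was -4.75 on replicate 4, against -0.80 to -0.21 on the other 3 arrays, of which replicate 1 lay below the background mark in both channels. Of 24 groups of 4 samples examined these 2 were picked out, where chance picks about 1 in 20.

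For 3 genes the dorsal sample was above the lateral one on every array at some times and below it on every array at others, and the difference between those times was not tested on its own. The test over all 6 times did not pass for any of them. Ptch1 (A_52_P598605) was higher in dorsal samples at 7 and 14 days and lower at 2 days (adjusted p = 0.579). Gli3 was higher at 8 hours, 1 day and 2 days and lower at 4 days (adjusted p = 0.596). Sufu (A_52_P603184) was higher at 8 hours and lower at 4 and 14 days, by less than the rounding on 14 days replicate 3 (adjusted p = 0.81). The probe named Sufu only in the older annotation ran the other way on every array at 8 hours and at 4 days.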

How the results depend on the processing

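Called values of the 8 genes kept their sign in all 57 cases under the alternative settings and the fits without 1 array, and 91 of 2006 uncalled values changed sign. Fits of the other probes of a gene are not among these cases. The mean wall difference called 0 of the 8 genes with quantile scaling (Boc 1.29, adjusted p = 0.0503) and with the scanner's processed signals (2.32, 0.0534), and 0 to 1 without 1 array. With every probe fitted on its own, a setting chosen after seeing the data, Boc had an adjusted p of 0.0517. Over all genes this comparison called 629, and 213 to 1150 without 1 array. Median centring called 1691 higher and 4425 lower genes, against 341 and 288, with an all-gene median of -0.21, and Boc remained called there (1.33, adjusted p = 0.00462). Other large shifts were 1799 higher and 1618 lower with slide as a random block, 753 and 733 with array weights, 705 and 674 without both arrays that stood apart, 385 and 428 without the filter, 127 and 111 with processed signals, and 141 and 141 with the deposited table. With slide as a random block, whose estimated correlations were -0.18 for the wall difference, -0.23 for dorsal and -0.25 for lateral levels, 2 of the 8 genes were called at 1 day and 3 at 14 days. That setting also called 4 between 14 days and 8 hours in the dorsal wall and 2 in the lateral wall, and 3 and 4 for the change with time in the dorsal and lateral walls. Array weights called 2 and 2 between 14 days and 8 hours and 6 and 6 for the change with time. For comparisons other than the mean wall difference, shares of all genes under these settings are not given, so these member counts cannot be set against them. In the dorsal change with time, array weights gave Boc an unadjusted p of 0.0111 and an adjusted p of 0.0244 (limma F test). Such a small adjustment means that a large share of all genes passed there. Between 14 days and 8 hours in the lateral wall, median centring, processed signals and the mean over probes called 0, and the second Boc probe turned the sign (0.23). The dorsal change with time called 0 with processed signals (Gli3 adjusted p = 0.0593), and the lateral one called 1 with quantile scaling and 1 without both arrays that stood apart. Without 1 array, the 14-day comparisons called 0 to 1 in either wall, and the change with time called 0 to 2 in the dorsal and 0 to 1 in the lateral wall. The cause was not tested.

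Whether the replicate numbers pair samples is not known, and the block results are given only here. With the number as a replicate block, the mean wall difference called 0 of the 8 genes (Boc 2.06, adjusted p = 0.0591) and 101 higher and 68 lower genes of all. With the title letter as the block it called 85 higher and 29 lower genes, and 1 of the 8 (Boc 2.25, adjusted p = 0.0294). Between 14 days and 8 hours either block called 1 gene in the dorsal wall (Gli3, -5.79 and -6.0) and 0 in the lateral wall (Boc, -1.92 and -1.93). Tulp3 and Foxf1 lost their calls in the mean wall difference under either block (adjusted p of 0.249 and 0.188 for Tulp3, 0.0964 and 0.135 for Foxf1). Without a block, Tulp3 also lost it with processed signals (adjusted p = 0.188) and the deposited table (0.0706). Foxf1 also lost it with quantile scaling (0.115) and the deposited table (0.0575). The 2-day call of Foxf1 was lost with quantile scaling (0.0736), the deposited table (0.117) and either block (0.0531 and 0.0994).

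Dim probes limit Boc, Hhip, Shh and Foxf1 most, since a level below the background mark has no order.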

Other observations

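The probes of 1 gene rarely ran together. Over the 34 samples the r of levels between 2 probes of a gene was 0.33 for Gli3, 0.24 for Sufu, 0.08 for Gli2, -0.04 for Hhip and -0.06 for Ptch1, between -0.19 and 0.17 for the 3 Smo probes, and between -0.16 and 0.21 for the 3 Boc probes. The 2 tested Boc probes had an r of -0.16 for levels and -0.39 for wall differences over 17 arrays. For these genes a statement holds for the probe named and not for the gene as a whole.

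The letters GACCACCCA, a binding motif of Gli factors, were searched on both strands in the RefSeq promoter windows around each gene's start. They were in 83 of 32851 promoters (0.253%) and in 0 of the promoters of the 6 members in that table.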
